A study of Mus musculus with 24 samples.

Results

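The regions described here carried a peak of histone H3 monomethylated at lysine 4 (H3K4me1) in both libraries of N1E115 cells kept at 4% oxygen and in neither library of the same cells kept at 20% oxygen. Overlapping or touching H3K4me1 peaks of the 4 libraries on chromosomes 1 to 19 were merged into 151106 regions, of which 1218 met this rule (0.806% of the regions) and are called 4%-only. The regions were chosen by the presence of H3K4me1 peaks in these 4 lists, so the H3K4me1 values below are a description and were not tested. The label under which the regions were proposed calls them gained, but the lists record whether a peak was called and not how much signal lay under it.

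N1E115 is a mouse neuroblastoma line, and in both groups the cells were labelled as positive for neuronal nitric oxide synthase (NOS1+). They were kept for 3 days at 20% oxygen, called normoxia in the labels, or at 4% oxygen, called hypoxia. Chromatin immunoprecipitation and sequencing covered 5 marks (H3K4me1, H3K27ac, H3K4me3, H3K36me3, H3K27me3) in 2 libraries for each oxygen level, and 4 inputs were not analysed here. Replicate 1 and replicate 2 of each mark had inputs with different numbers, and the labels do not tell whether replicates were cultured apart, which means that p-values measure only the spread of these libraries and that this spread may be technical.

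The labelled cell type was checked by H3K4me3 at the 300-base start windows of marker genes. Only genes with a listed window were counted. These were 18 of the 28 noradrenergic, 17 of the 24 mesenchymal and 20 of the 35 neuronal and synaptic genes. For glial, immune, endothelial and housekeeping genes they were 10 of 15, 9 of 16, 9 of 14 and 14 of 19. H3K4me3 was present in all 4 libraries at 15 of 18 noradrenergic neuroblastoma genes, and Ddc, Lmo3 and Tfap2b had it in none. The counts were 0 of 10 for glial genes, 0 of 9 for immune genes and 1 of 9 for endothelial genes. They were 13 of 14 for housekeeping genes, 8 of 17 for mesenchymal genes and 13 of 20 for neuronal and synaptic genes. Over all start windows the count was 12535 of 31396. For the NOS1+ label, the single start window listed for Nos1 and its whole 92002 bp gene record had no H3K4me3 peak in any of the 4 libraries. The promoter mark thus did not back the label there, and starts outside the window and the record were not checked. H3K36me3 islands, which mark transcribed bodies, covered 88162, 92002, 90962 and 88362 bp of the record (20% replicates 1 and 2, then 4% replicates 1 and 2). Numbers of peaks per list were 99749 to 126503 for H3K4me1 and 60786 to 94286 for H3K27ac. Read depth was unknown for these marks.

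H3K4me1 is laid down by the MLL3 and MLL4 methyltransferases at enhancers, including enhancers that are not active. Active enhancers also carry H3K27ac, the product of the acetyltransferases p300 and CBP, whereas H3K4me3 marks promoters, H3K36me3 the bodies of transcribed genes and H3K27me3 chromatin repressed by Polycomb. In low oxygen the hypoxia-inducible factors are stabilised and bind to enhancers and promoters of genes for glycolysis, angiogenesis and collagen modification. Several histone lysine demethylases use oxygen as a substrate.

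Few of the regions lay at listed gene starts. A start was listed for 16457 of the 20665 protein-coding genes on these chromosomes, and the starts of the others were not examined. RefSeq start windows (GRCm38.p6, 250 bases before to 50 after the start) numbered 31396 on these chromosomes, and 7 of the 1218 regions (0.575%) overlapped one. Of the 9413 regions with peaks in both 20% libraries and neither 4% library, called 20%-only, 292 did (3.10%), and of all regions 2.42%. Of the 7 windows, 4 are shown, chosen after their values were seen, because they are the only one that lies wholly inside its region (Gm51500) and the ones that also carried H3K27ac (Lman1l, Ttyh2, 5430425K12Rik). Capitals mark the bases inside the 4%-only region.
Gm51500 (a long non-coding RNA gene, chr7:133933574-133933873, + strand): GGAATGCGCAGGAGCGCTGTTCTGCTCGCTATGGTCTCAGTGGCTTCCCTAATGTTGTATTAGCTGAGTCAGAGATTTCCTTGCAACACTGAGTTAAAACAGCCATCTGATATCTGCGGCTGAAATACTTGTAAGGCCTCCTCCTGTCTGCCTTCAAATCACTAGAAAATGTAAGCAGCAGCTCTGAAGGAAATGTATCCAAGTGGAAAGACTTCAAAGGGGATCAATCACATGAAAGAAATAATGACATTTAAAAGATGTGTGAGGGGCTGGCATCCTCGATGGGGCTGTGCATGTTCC
Lman1l (a lectin-like gene, chr9:57620725-57621024, - strand): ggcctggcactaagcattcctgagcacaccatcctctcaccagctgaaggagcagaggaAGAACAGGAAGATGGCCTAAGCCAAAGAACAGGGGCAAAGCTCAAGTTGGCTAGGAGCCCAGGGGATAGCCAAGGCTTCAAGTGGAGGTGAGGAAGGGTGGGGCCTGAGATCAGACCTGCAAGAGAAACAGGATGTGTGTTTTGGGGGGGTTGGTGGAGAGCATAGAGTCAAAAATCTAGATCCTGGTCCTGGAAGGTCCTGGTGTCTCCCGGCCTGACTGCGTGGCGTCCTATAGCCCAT
Ttyh2 (a tweety family membrane protein gene, chr11:114675218-114675517, + strand): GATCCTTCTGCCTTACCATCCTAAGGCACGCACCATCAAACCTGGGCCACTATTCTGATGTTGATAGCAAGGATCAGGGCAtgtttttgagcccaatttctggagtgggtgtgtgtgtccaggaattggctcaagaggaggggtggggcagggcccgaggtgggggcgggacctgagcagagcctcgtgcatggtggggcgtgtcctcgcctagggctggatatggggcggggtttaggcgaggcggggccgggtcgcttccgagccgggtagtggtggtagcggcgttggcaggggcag
5430425K12Rik (a long non-coding RNA gene, chr13:80940153-80940452, + strand): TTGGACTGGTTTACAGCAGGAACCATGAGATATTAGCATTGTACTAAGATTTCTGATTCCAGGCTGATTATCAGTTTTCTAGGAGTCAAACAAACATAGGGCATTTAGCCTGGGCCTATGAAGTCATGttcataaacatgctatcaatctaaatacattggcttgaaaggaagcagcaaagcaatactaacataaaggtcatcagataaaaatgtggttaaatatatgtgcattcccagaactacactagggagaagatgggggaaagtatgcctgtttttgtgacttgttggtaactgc
None of the 4%-only regions at these windows had an H3K4me3 peak in any of the 4 libraries. H3K27ac covered 0, 0, 0 and 186 bp of the region at Lman1l in the order 20% replicate 1, 20% replicate 2, 4% replicate 1 and 4% replicate 2, which is the order used throughout. At Ttyh2 the covered lengths were 0, 0, 212 and 0 bp, and at 5430425K12Rik 0, 0, 0 and 162 bp. Each of these H3K27ac peaks thus stood in a single 4% library. The core of the hypoxia response element, searched as ACGTG or GCGTG on both strands, was in 3 of the 7 windows and in 44.1% of all windows. The 7 windows had a median of 3 CG dinucleotides, against 7 over all windows. None of 919 annotated miRNA hairpins overlapped a 4%-only region.

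The 4%-only regions were short and their peaks were weak. Their median width was 423.5 bp (197 to 1371 bp), against 552 bp for the 9413 20%-only regions and 1953 bp for the 34430 regions with a peak in all 4 libraries. The peak score, the authors' −log10 significance value, had a median of 4.86 over the regions in 4% replicate 1 and 5.15 in 4% replicate 2. The medians of the whole lists were 6.41 and 6.36, and 79.2% and 72.2% of the regions scored below them. In the top 10% of the lists lay 4 and 8 of the regions. In 346 regions (28.4%) both scores were at least 5, and the lowest score was 2.01, near the lowest deposited.

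The regions just outside the rule were more numerous than those inside it. Peaks in both 4% libraries and exactly 1 of the 20% libraries were found in 3781 regions, with the 20% peak in replicate 1 for 2632 and in replicate 2 for 1149. The smallest 20% coverage among them was 187 bp. Inside the rule, 2 regions lay 1 bp from a 20% peak. The number of regions followed the libraries and the merging: it would be 5077 without 20% replicate 1, 2791 without 20% replicate 2, 17250 without 4% replicate 1 and 9016 without 4% replicate 2, and 774 or 447 with peaks up to 200 or 1000 bp apart merged.

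Most 4%-only regions stood beside chromatin that carried H3K4me1 at 20% oxygen. The median distance to the nearest 20% peak was 340 bp (quartiles 121 and 1370 bp), and 871 regions (71.5%) had one within 1000 bp. The 20% peak lay on 1 side in 632 regions and on both sides in 239. More than 10000 bp from any 20% peak were 94 regions (7.72%). Coverage by 20% peaks, 0% at the midpoint by the rule, was 18.6% and 16.0% at 1000 bp on one side and 20.3% and 14.9% on the other, and that of the 4% libraries there was 16.3% and 17.8%, then 18.2% and 18.4%. At these positions 20% replicate 1 was the highest library and 20% replicate 2 the lowest. At 4000 bp to the left of the midpoint both 20% libraries (18.6% and 14.4%) lay above both 4% libraries (12.1% and 12.3%). At 4000 bp to the right the groups overlapped, with 18.0% and 12.6% at 20% and 12.8% and 11.6% at 4%. The whole H3K4me1 lists covered 104.6 and 81.0 Mb at 20%, against 60.4 and 63.2 Mb at 4%.

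**Figure D1:**
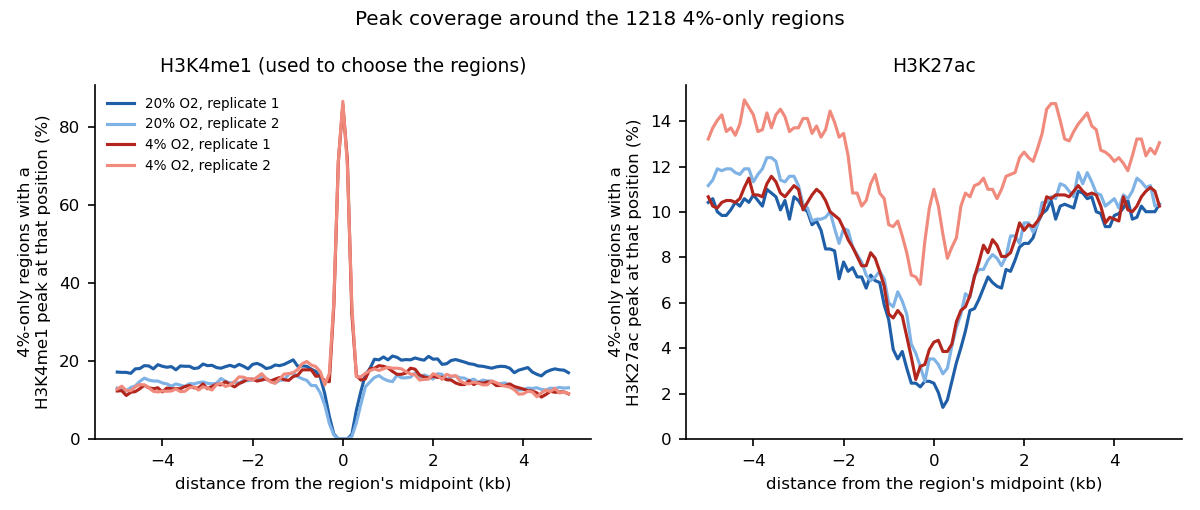
Share of the 1218 4%-only regions (vertical axis, percent) with a peak at each distance from the region's midpoint (horizontal axis, kb), 1 line per library, for H3K4me1 (left) and H3K27ac (right). H3K4me1 peaks at the centre were set by the rule; H3K27ac is lower at the midpoint than 5 kb to the left in all 4 libraries, at 2.46%, 3.53%, 4.27% and 11.0% against 10.4%, 11.2%, 10.7% and 13.2%, and 4% replicate 2 has a local peak at the midpoint between lows such as 6.81% at 0.3 kb to the left.

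H3K27ac, which did not enter the rule, was rare at these regions and was found in more of them in the 4% libraries. It overlapped 50 of the 1218 regions in 20% replicate 1 (4.11%), 83 in 20% replicate 2 (6.81%), 86 in 4% replicate 1 (7.06%) and 210 in 4% replicate 2 (17.2%). Both 4% libraries lay above both 20% libraries, and 4% replicate 2 stood far above the other 3. The means were 5.46% ± 1.92 (SD, n = 2) at 20% and 12.2% ± 7.20 (SD, n = 2) at 4%, a difference of 6.69 percentage points, which was below the SD of the 4% libraries. The exact permutation test over libraries gave p = 0.33 (two-sided), the smallest that 2 against 2 libraries allow, so this design cannot pass 0.05. Without 4% replicate 2 the difference would be 1.60 points, and without 4% replicate 1 it would be 11.8 points.

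The difference was 2.96 points between the libraries with replicate number 1 and 10.4 points between those with number 2. The H3K27ac lists were unequal in length, and the list of 4% replicate 2 was the longest. Over all 151106 regions the 4 libraries overlapped 29.4%, 33.0%, 29.4% and 37.7%, a difference of 2.37 points. In the regions with H3K4me1 in all 4 libraries they overlapped 65.0%, 68.2%, 64.7% and 74.0%, and in the 20%-only regions 31.5%, 38.7%, 30.6% and 41.4%. In these 3 comparison sets 4% replicate 1 lay below 20% replicate 2, whereas in the 4%-only regions it lay above it, by 86 regions against 83. With the H3K27ac lists trimmed to an equal number of their highest-scoring peaks, the 4%-only regions gave 3.45%, 4.19%, 7.06% and 8.70%, so that the 4 values lay closer together within each oxygen level and the difference was 4.06 points.

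The file headers name 3 flow cells. The H3K27ac libraries of replicate 2 shared a flow cell and a lane. Those of replicate 1 were on different flow cells, so that oxygen and flow cell cannot be told apart in the difference of 2.96 points. The 10.4 points of replicate 2 are a value within 1 flow cell. In replicate 1 the H3K4me3, H3K36me3 and H3K27me3 libraries also differed in flow cell between the oxygen levels. The H3K4me1 libraries of each replicate number shared a flow cell but were on different lanes, as were those of H3K4me3 in replicate 2. Oxygen and lane thus cannot be told apart in the H3K4me1 lists that chose the regions.

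**Figure D2:**
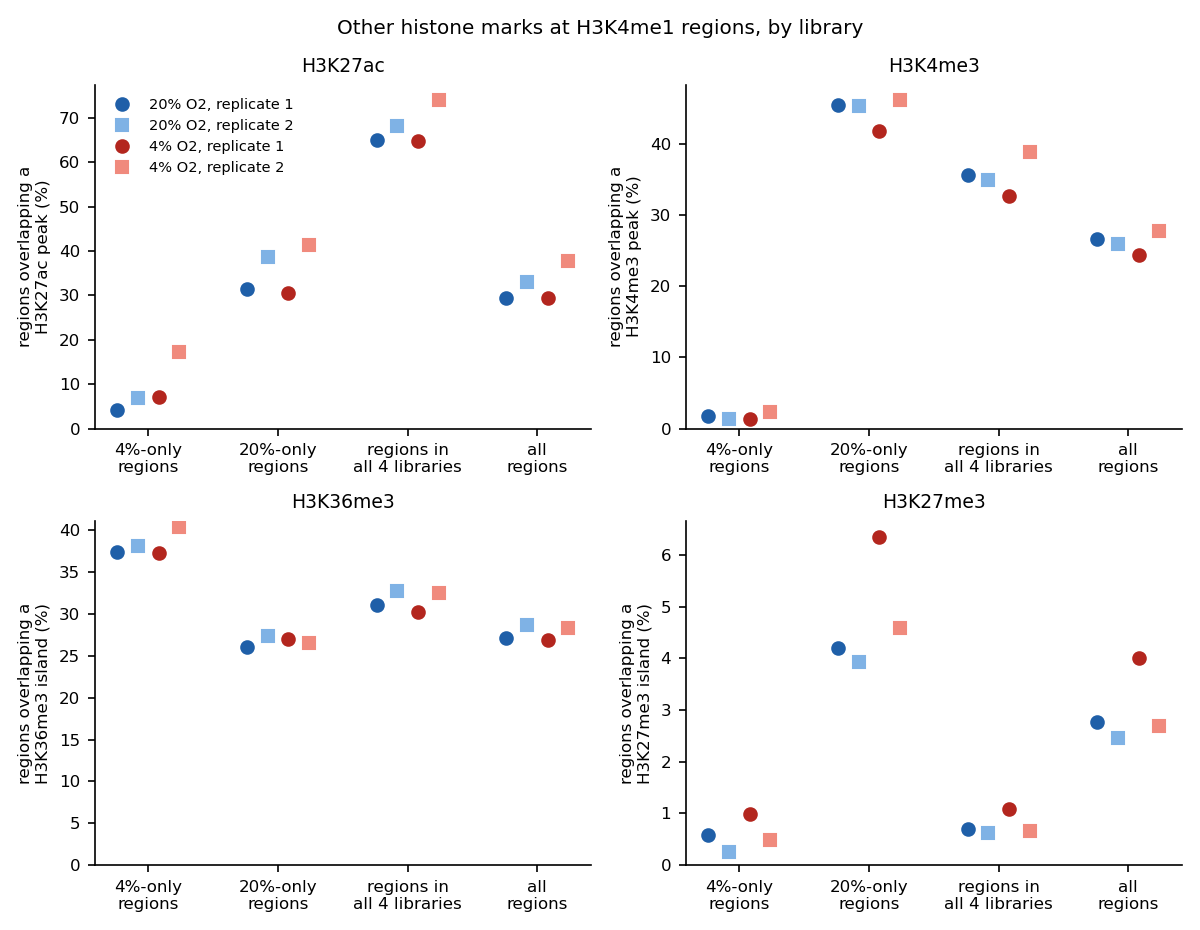
Share of regions overlapping a peak or island of each of 4 other marks (vertical axes, percent), 1 point per library, for the 4%-only regions, the 20%-only regions, the regions with H3K4me1 in all 4 libraries and all regions. The 4%-only regions have the lowest H3K27ac and H3K4me3 shares and the highest H3K36me3 shares of the 4 sets.

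H3K27ac in both 4% libraries and neither 20% library was found at 30 of the 1218 regions (2.46%), against 1.5% of all H3K4me1 regions. Its share was 1.98% of the regions with H3K4me1 in all 4 libraries and 1.52% of the 20%-only regions. The reverse, H3K27ac in both 20% libraries and neither 4% library, was found at 1 region (0.0821%), against 0.599% of all regions. In 944 regions (77.5%) no library had an H3K27ac peak, in 10 all 4 libraries had one, and in 110 only 4% replicate 2 did. The count of 30 thus came from a small part of the regions. Without 4% replicate 1 the count would be 140, without 4% replicate 2 it would be 51, without 20% replicate 1 it would be 35, and without 20% replicate 2 it would be 46. The reverse count of 1 would be 2, 9, 25 and 15 in the same order. The count of 30 would be 9 if H3K27ac had to cover at least 50% of the region, and 19 with H3K27ac lists of equal length.

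Of the 30, 17 lay at H3K27ac sites that were as a whole confined to the 4% libraries, 4 at sites that reached all 4 libraries elsewhere, and 9 at other sites. Within 1000 bp of a 20% H3K27ac peak were 15 of the 30. Sites with H3K27ac in both 4% and neither 20% library numbered 2498 of 96086, and 22 of these (0.881%) overlapped a 4%-only H3K4me1 region. Of the 2498, 32.1% overlapped H3K4me1 peaks of all 4 libraries, which need not lie in the same H3K4me1 region. Of all H3K27ac sites 0.322% overlapped a 4%-only H3K4me1 region. Of the 1482 sites with H3K27ac in both 20% and neither 4% library 4 did (0.270%). No test was made of these differences.

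Palmd, which encodes palmdelphin, ranked first among the 30 by the smaller of its H3K27ac covered lengths at 4%. H3K27ac covered 0, 0, 1077 and 766 bp of its 1138 bp region at chr3:116931288-116932425, inside the gene record. H3K4me1 covered 1074 bp of it in 4% replicate 1 and 230 bp in replicate 2, and the nearest 20% H3K4me1 peak was 9068 bp away. The H3K4me1 peak of replicate 2 had a score of 2.64, at the 1.49th percentile of its list and near the lowest deposited score, against 8.23 in replicate 1. A further 4%-only region lay 10.6 to 11.3 kb to its left, where H3K27ac was found in 4% replicate 2 only. No 20% H3K27ac peak fell within 20 kb of the region's centre.

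The next regions of the 30 by the same ranking lay at genes of various kinds. At Rab11fip5, an effector of the recycling GTPase Rab11, the covered lengths were 0, 0, 405 and 405 bp (chr6:85382407-85382917, 7722 bp outside the gene record), and this region also had H3K27me3 over 0, 0, 117 and 511 bp. At Rab27a, a GTPase of secretory vesicles, they were 0, 0, 244 and 244 bp (chr9:73054538-73054781, inside the gene). Nceh1, a neutral cholesterol ester hydrolase, had 0, 0, 570 and 395 bp at chr3:27193627-27194334. In all of these, H3K27ac was absent from both 20% lists by the rule that chose them.

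Inside the chromatin remodeller gene Chd2 the lengths were 0, 0, 248 and 321 bp (chr7:73528504-73529240), and inside Trio, a guanine nucleotide exchange factor, 0, 0, 335 and 225 bp (chr15:27822338-27822853). Usp31, a deubiquitinase gene, had 0, 0, 301 and 520 bp at chr7:121661100-121661852. The regions in Chd2, Trio and Usp31 lay in H3K36me3 islands over their whole width in all 4 libraries. The remaining regions of this group lay outside gene records, nearest to Top1 (108937 bp), Zfp462 (111752 bp) and Commd8 (31799 bp).

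The distance between the summits of H3K27ac and H3K4me1 was measured in 4% replicate 2 only. Over the 210 regions with both marks its median was 141 bp, with 64.3% within 200 bp, and over the 30 regions with H3K27ac at 4% alone it was 220.5 bp, with 46.7% within 200 bp. In the 25486 regions with H3K4me1 in all 4 libraries and H3K27ac in the same library the median was 441 bp, but those regions were also wider. No test was made of this difference.

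H3K27ac was also compared by the distance to the nearest 20% H3K4me1 peak. In the 460 regions within 200 bp of one, H3K27ac overlapped 5.65%, 8.48%, 6.74% and 19.6%, so that 4% replicate 1 lay below 20% replicate 2. In the 411 regions beyond 200 and up to 1000 bp it overlapped 4.87%, 8.52%, 9.25% and 20.7%, and in the 253 beyond 1000 and up to 10000 bp 1.58%, 2.77%, 4.35% and 11.9%. In the 94 regions beyond 10000 bp it overlapped 0, 2, 6 and 5 regions. Both 4% libraries exceeded both 20% libraries in each class beyond 200 bp. The regions with no 20% H3K4me1 peak within 1000 bp, 347 in all, gave 1.15%, 2.59%, 4.90% and 10.1%.

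**Figure D3:**
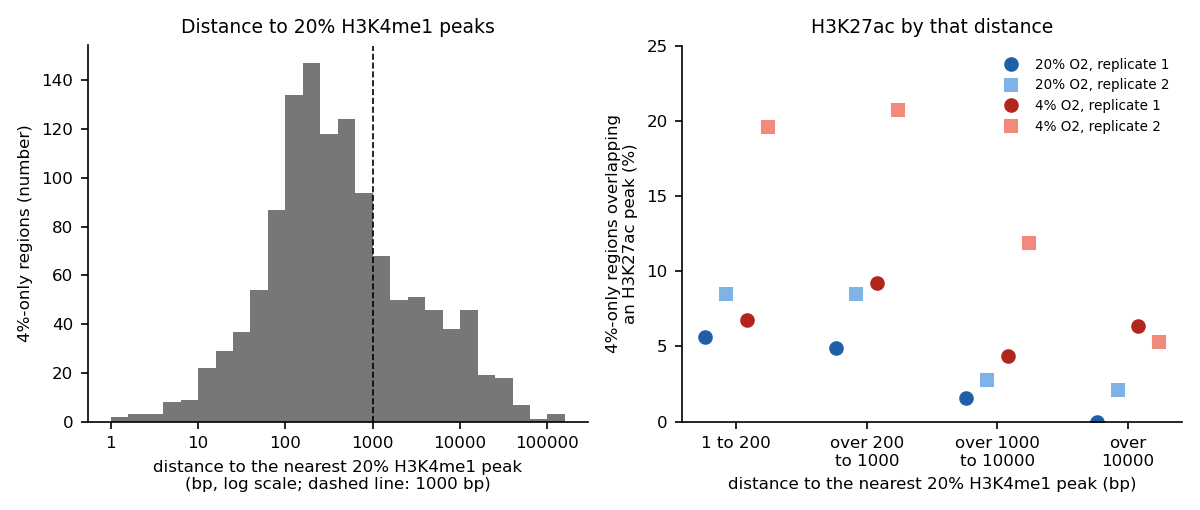
Left, number of 4%-only regions by distance to the nearest 20% H3K4me1 peak (horizontal axis, bp, log scale), with most regions left of the dashed line at 1000 bp. Right, share of the regions in each distance class that overlapped an H3K27ac peak (vertical axis, percent), 1 point per library; in each library the share beyond 1000 and up to 10000 bp is below those in the nearer classes.

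The promoter mark was nearly absent. H3K4me3 overlapped 21, 17, 16 and 28 of the regions (1.72%, 1.40%, 1.31% and 2.30%), and the oxygen groups overlapped (exact permutation p = 1, two-sided, n = 2 per group). Over all regions it overlapped 24.4% to 27.8%. H3K4me3 in both 4% and neither 20% library was found at 0 of the 4%-only regions, against 0.212% of all regions. H3K27me3, the Polycomb mark, overlapped 7, 3, 12 and 6 regions (0.575%, 0.246%, 0.985% and 0.493%), against 2.76%, 2.46%, 4.01% and 2.68% of all regions. The difference at the 4%-only regions was 0.328 points, with overlapping groups (exact permutation p = 0.67, two-sided, n = 2 per group).

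The mark of transcribed gene bodies was the most frequent of the other marks. H3K36me3 islands overlapped 37.4% and 38.2% of the 4%-only regions in the 20% libraries and 37.3% and 40.4% in the 4% libraries, a difference of 1.03 points with overlapping groups (exact permutation p = 1, two-sided, n = 2 per group). Over all H3K4me1 regions the shares were 27.2%, 28.7%, 26.9% and 28.4%. In every library the share was thus higher at the 4%-only regions than over all regions, at both oxygen levels. All 4 libraries had H3K36me3 at 381 of the regions, and none had it at 671. H3K36me3 in both 4% and neither 20% library was found at 14 regions (1.15%, against 0.524% of all regions) and the reverse at 5 (0.411%, against 0.576%).

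The regions lay inside genes more often than other H3K4me1 regions and farther from gene starts. Inside protein-coding gene records were 812 of them (66.7%), against 56.1% of the 20%-only regions, 60.8% of the regions in all 4 libraries and 58.2% of all regions. The median distance to the nearest annotated start was 36168.5 bp, against 11746, 23248.5 and 21958 bp. The same starts served for all sets, but only 16457 of the 20665 protein-coding genes had one listed, so some distances are too long. The region inside Prkg2, a gene of 107.6 kb, was 240468 bp from a listed start. Within 1000 bp of a start lay 26 regions (2.13%), against 20.4% of the 20%-only and 10.6% of all regions. The RefSeq table of gene records has no strand and does not separate exons from introns, so no exon or intron is given.

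The genes that held them were long. Of 20665 protein-coding genes, 629 (3.04%) held at least 1 region. Their median length was 112 kb, against 17.5 kb for all protein-coding genes, and of the regions inside genes 61.9% lay in genes longer than 100 kb, against 53.0% for all H3K4me1 regions inside genes. In 40 genes there were 3 or more. Another 4%-only region lay within 100 kb of 434 of the regions (35.6%).

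B3galt1 (a galactosyltransferase), Dlg2 (the synaptic scaffold PSD-93) and Pde4b (a cAMP phosphodiesterase) held 6 regions each, of 104, 171 and 97 H3K4me1 regions in the gene. Dlg2 is 1973 kb long. Gnaq, the alpha subunit of the Gq protein, held 5 of 88, all within 112 kb (chr19:16273455-16385519), and the choline transporter gene Slc44a1 5 of 55, all within 29.9 kb (chr4:53487969-53517861). Of the 5 regions at Gnaq, H3K27ac overlapped 0, 0, 0 and 1, and of those at Slc44a1 0, 1, 0 and 0. Another group of 5 spanned 234 kb near Prl5a1 and Sox4 (chr13:28318309-28552487), and Asap1 (chr15:64288399-64404193) and the Dpysl3 neighbourhood had 5 each. Among smaller genes, Cab39, singled out after its values were seen, which encodes a scaffold of the LKB1 kinase complex, held 3 of 5 H3K4me1 regions as 4%-only regions, and H3K36me3 islands covered 97.3%, 97.3%, 97.0% and 97.7% of it.

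By the authors' peak scores the regions with the highest ranks in both 4% lists lay inside Bcas3, Tle4, Trank1, Atg10, Fkbp5 and Map2k4, and outside gene records nearest to Prep (26198 bp), Cemip2 (87374 bp), Top1 (108937 bp) and Mgat5 (109745 bp). The highest of these by the lower of its 2 ranks was in Bcas3 (chr11:85477132-85477704, scores 9.37 and 9.49, at the 74.7th and 77.9th percentiles of the lists). Tle4, a transcriptional corepressor of the Groucho family, followed with scores of 9.35 and 8.82 (chr19:14540836-14541591). H3K27ac was absent from 8 of these 10 in all 4 libraries. It covered 0, 0, 255 and 579 bp of the 579 bp region nearest to Top1, and 0, 349, 349 and 349 bp of the 349 bp region nearest to Cemip2. Fkbp5, a co-chaperone of the glucocorticoid receptor, and Map2k4, a kinase of the JNK pathway, held regions inside H3K36me3 islands of all 4 libraries.

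Genes of the hypoxia response were among those with 4%-only regions nearby. Within 50 kb of a region lay 10 of 41 genes of that list (24.4%), Adm, Bnip3, Ddit4, Epas1, Jmjd6, Kdm3a, Kdm4b, P4ha1, Plod2 and Zfp395, against 1440 of all 20665 protein-coding genes (6.97%). Counted by region, 13 of the 880 H3K4me1 regions within 50 kb of these genes were 4%-only (1.48%), against 0.797% for all genes, and inside the genes 8 of 319 (2.51%), against 0.923%. Of those 880 regions 57 were 20%-only (6.48%), against 6.47% for all genes. The lists were chosen with earlier results of these data known, and the counts are a description without a test.

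Among the other lists, the genes with a region within 50 kb were 8 of 28 of noradrenergic neuroblastoma identity, 6 of 25 of nitric oxide and cGMP signalling, 5 of 24 of the mesenchymal state, 6 of 35 of neuronal and synaptic genes and 3 of 28 of glycolysis. Of the regions around them, 1.15%, 1.05%, 1.05%, 0.881% and 0.571% were 4%-only. Lower numbers of genes, or the same as for glycolysis, were found for histone-modifying enzymes (3 of 31), the unfolded protein response (2 of 20), mitochondrial respiration (2 of 20), cell cycle (1 of 22), glial markers (1 of 15) and endothelial markers (1 of 14). No gene of the circadian (0 of 18), immune (0 of 16), liver and muscle (0 of 18) or housekeeping (0 of 19) lists had one.

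**Figure D4:**
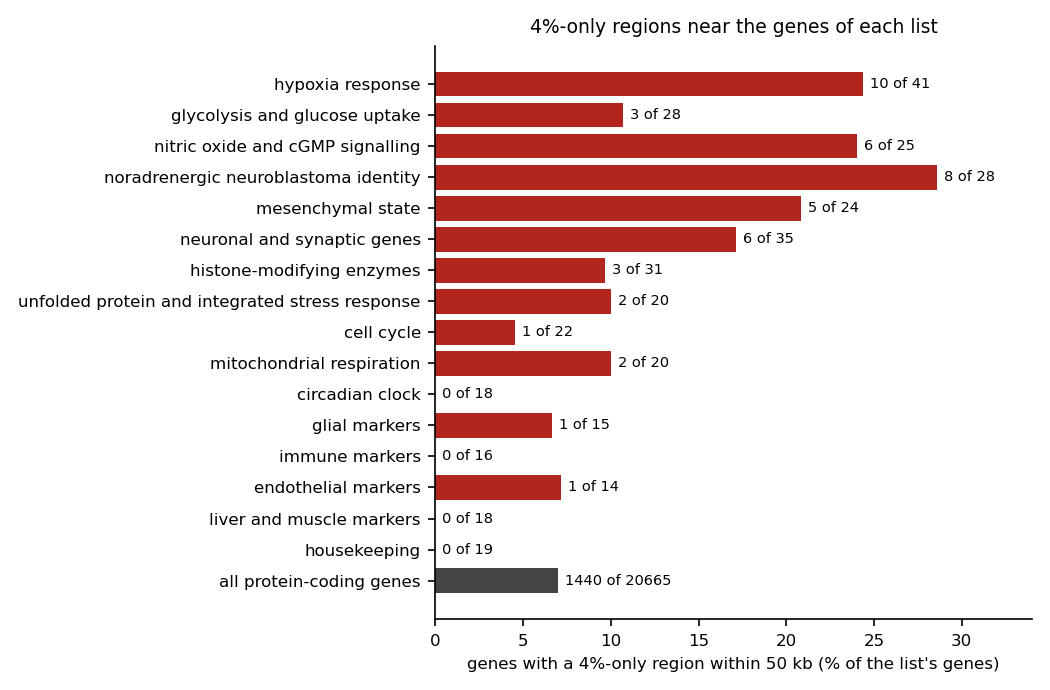
Percent of the genes of each list with a 4%-only region within 50 kb (bars, horizontal axis), with the number of genes beside each bar and all protein-coding genes as the dark bar at 6.97%. The noradrenergic, hypoxia response and nitric oxide lists have the longest bars, and circadian, immune, liver and muscle, and housekeeping genes have none.

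P4ha1, the catalytic subunit of collagen prolyl 4-hydroxylase and a known target of the hypoxia-inducible factors, had 3 regions. The one at chr10:59345730-59346695, inside the gene and 22433 bp from the nearest start, had H3K4me1 over 966 bp in 4% replicate 1 and 239 bp in replicate 2, with scores of 13.0 and 6.04, and its nearest 20% peak was 10330 bp away. The one at chr10:59335925-59336552, 12628 bp from the start, had 628 and 219 bp and lay 525 bp from a 20% peak. The third, chr10:59310371-59310684, lay 12512 bp outside the gene record and had 197 and 187 bp. At 20% oxygen the H3K4me1 peaks of the gene ended 12.2 kb from its first base, and the region 22.5 kb from it had 4% peaks only.

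None of the 3 regions of P4ha1 had H3K27ac in any library. H3K36me3 covered the regions inside the gene over their whole width in all 4 libraries, and 97.6%, 97.2%, 98.0% and 99.2% of the gene record. The gene body thus carried the transcription mark at both oxygen levels.

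**Figure D5:**
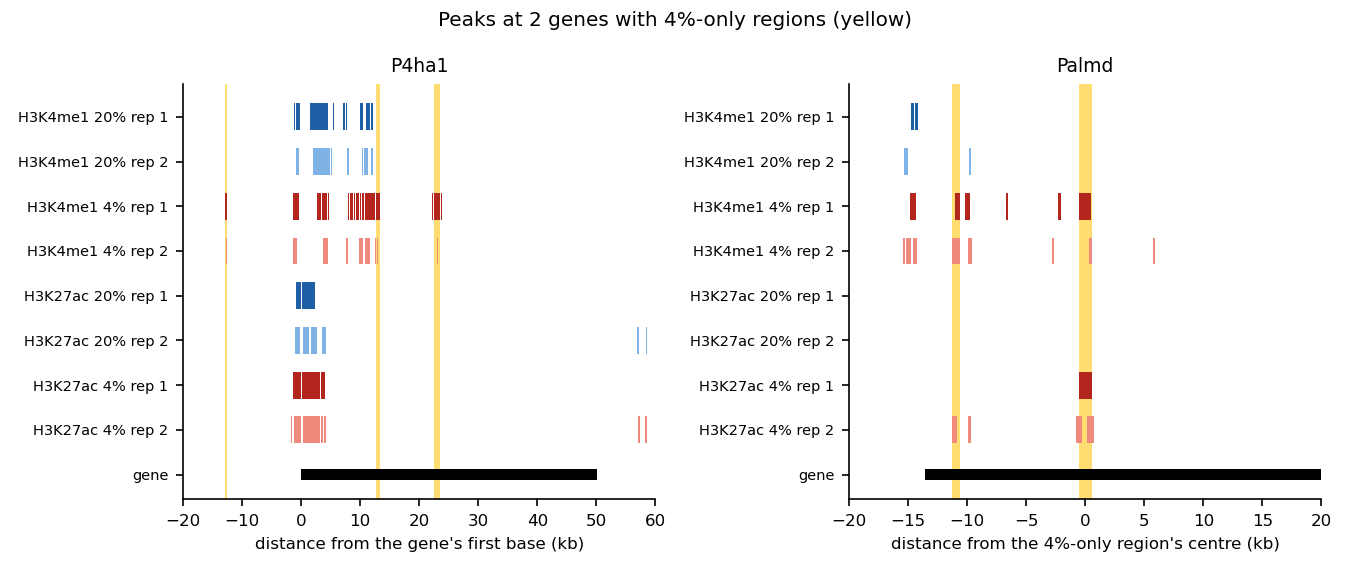
Peaks of H3K4me1 and H3K27ac in each library (bars, 1 row per library) along P4ha1 (left, kb from the gene's first base) and around the 4%-only region of Palmd (right, kb from its centre); yellow bands are 4%-only regions and the black bar is the gene record. At P4ha1 the yellow bands hold H3K4me1 at 4% and no H3K27ac, whereas the central band at Palmd holds H3K27ac in both 4% libraries.

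Kdm3a, an oxygen-dependent demethylase of histone H3 lysine 9, held 2 neighbouring regions, chr6:71616331-71616554 and chr6:71616625-71617243, 11851 bp and more from any 20% H3K4me1 peak. H3K4me1 covered 197 and 188 bp of the first and 495 and 459 bp of the second in the 4% libraries. The scores of the first were 2.67 and 2.36, at the 1.28th and 0.705th percentiles of the lists and near the lowest deposited. Those of the second were 5.89 and 5.22, at the 43.2nd and 33.7th percentiles. Of the H3K4me1 regions within 50 kb of the gene, 2 of 13 were found in all 4 libraries and none was 20%-only.

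Bnip3, a receptor for mitophagy, and Plod2, a lysyl hydroxylase that modifies collagen, held 1 region each close to their starts. The Bnip3 region (chr7:138903175-138903621) lay 5884 bp from a start and 76 bp from a 20% H3K4me1 peak. The Plod2 region (chr9:92545922-92546700) lay 3052 bp from a start, and H3K4me3 covered 0, 0, 0 and 601 bp of it. Both lay in H3K36me3 islands of all 4 libraries and had no H3K27ac peak.

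Regions in Epas1 (chr17:86784217-86784640), which encodes the alpha subunit of hypoxia-inducible factor 2, and in the demethylase gene Kdm4b (chr17:56333362-56333660) also had no H3K27ac. Near Adm, the vasodilator peptide adrenomedullin, a region 12132 bp outside the gene record (chr7:110641953-110642589) had H3K27ac over 0, 0, 0 and 406 bp. Of the 13 regions within 50 kb of the genes of this list, H3K27ac was found at 2, the one near Adm and the one 32229 bp from Ddit4, a stress-induced inhibitor of mTOR signalling. The Ddit4 region had it in 20% replicate 2 only, and the Adm region in 4% replicate 2 only.

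In the glycolysis list, Slc2a1, the glucose transporter GLUT1, held a region 3932 bp from a start (chr4:119112682-119113656) with H3K4me1 over 907 and 253 bp and no H3K27ac. Pfkl, the liver-type phosphofructokinase, held one 4557 bp from a start (chr10:78004787-78005249) with H3K27ac over 0, 0, 0 and 437 bp. Both lay in H3K36me3 islands of all 4 libraries.

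Of the nitric oxide and cGMP genes, Prkg1 (2 regions) and Prkg2 (1 region), the cGMP-dependent protein kinases, had no H3K27ac at their regions. Nos1ap, an adaptor protein that binds NOS1, had a region 2655 bp outside its record (chr1:170592505-170592814), also without H3K27ac. The region in the record of Adora2a, an adenosine receptor, had H3K27ac over 16, 51, 0 and 512 bp (chr10:75324218-75324730), so that the 4% libraries lay on either side of the 20% libraries.

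In the noradrenergic list, Klf7, a zinc-finger transcription factor of neurons, held 2 regions, with H3K27ac over 273, 201, 0 and 223 bp and over 0, 119, 0 and 0 bp, and Alk, a receptor tyrosine kinase that is mutated in some neuroblastomas, held 2, both without H3K27ac. In the mesenchymal list the regions in Runx2 and Fosl2 had none, and that in Zeb2 had 0, 0, 0 and 389 bp. Of the neuronal genes, the synaptic vesicle calcium sensor gene Syt1 held 3 regions, none with H3K27ac, and the region in Map2, a dendritic microtubule protein, had 0, 0, 182 and 0 bp. The regions in the H3K36 demethylase genes Kdm2a and Kdm2b lay in H3K36me3 islands of all 4 libraries and had no H3K27ac.

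The share of H3K4me1 regions that were 4%-only differed by chromosome, from 0.551% on chromosome 12 (39 of 7079) to 1.24% on chromosome 18 (54 of 4362), with 1.05% on chromosome 19. In 4% replicate 2 H3K27ac overlapped more of the regions than in either 20% library on each of the 19 chromosomes. In 4% replicate 1 it did so on 7 chromosomes, equalled the higher 20% library on 4 and lay below it on 8, such as chromosome 17 (0% against 4%).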

How the data were processed

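ChIP-seq peak lists of 5 marks were used, 4 libraries each, with every library placed by its title. Per the submitters' processing notes, BWA (mm10), Picard and MACS2 or SICER were used, and per the file headers peaks were called for each library; versions are not given in the sources used here. The deposited MACS2 lists (H3K4me1, H3K27ac, H3K4me3) carry a score, a −log10 significance value by its layout. The deposited SICER lists (H3K36me3, H3K27me3) carry a whole number per island, read here as its read count and used only to rank islands. Intervals of the replicate 2 libraries were listed under replicate 1; they matched the replicate 2 summits, or the same islands, in 100% of entries.

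Peaks on chromosomes 1 to 19 were merged (Python 3.11.15, pandas 2.3.3, numpy 2.4.6) and a mark counted as present with at least 1 bp of overlap. The interval functions were tested on simulated data. Means of 2 libraries were compared by exact permutation, two-sided. Genes and start windows came from RefSeq (GRCm38.p6). Named regions were the 10 with the highest H3K4me1 ranks, the 10 with most H3K27ac confined to the 4% libraries, the largest groups, the genes with most regions, and regions whose nearest gene was in 1 of 16 lists (at most 10 or 3 per list). The members and lists were chosen with earlier results of these data known. Alternatives changed the merging, scores, overlap, list lengths and libraries.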

Additional observations from a re-analysis of the deposited data

How the results depend on the processing

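The number of 4%-only regions depended on the merging and on the scores. It was 774 with peaks up to 200 bp apart merged, 447 with peaks up to 1000 bp apart merged, 692 with a score of at least 5 in all 4 H3K4me1 lists, 352 with that score in the 4% lists only, and 347 with no 20% peak within 1000 bp. Without each H3K4me1 library in turn it was 2791 to 17250. Equal peak numbers (1637) and coverage of at least 50% (1278) stayed within 1.5 times. The share inside genes was 62.9% with peaks up to 1000 bp apart merged, and 60.5% to 67.3% without each library.

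The H3K27ac difference kept its sign in all 12 alternatives, but the replicate block, counted among them, leaves the difference unchanged. With all libraries kept it was 4.06 to 10.2 points, with exact permutation p of 0.33 to 0.67. Without each library it was 1.60 to 11.8 points. The 30 regions with H3K27ac at 4% alone became 9 with at least 50% covered, 19 with equal peak numbers, and 35 to 140 without each H3K27ac library; the reverse count of 1 was 0 in the first and second of these and 2 to 25 without each library. Without each library the difference was -0.246 to 0.739 points for H3K4me3 and -0.534 to 2.59 for H3K36me3, negative without 4% replicate 2.

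With the replicate number as a block (exact sign flips, smallest p 0.5) the H3K27ac difference of 6.69 points had p = 0.5; H3K4me3 and H3K36me3 had p = 1 and H3K27me3 0.5. Same-numbered libraries deviated together with a correlation of 0.095 for H3K27ac over the 4%-only regions and 0.313 over all regions. For H3K4me3, H3K36me3 and H3K27me3 it was 0.151, 0.181 and 0.646 over the 4%-only regions. Over all regions these 3 marks gave 0.187, 0.113 and 0.332. The H3K27me3 value of 0.646 rests on 15 regions with an island in any library. The labels give only a shared number. The read depth of the H3K4me1, H3K27ac and H3K4me3 lists is unknown, so the part of depth in the differences in list length was not tested.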
